A study of Mus musculus with 8 samples.

Results

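Galectins are lectins that recognise β-galactoside sugars on glycoproteins and glycolipids, and 4 of them together with the galectin-3-binding protein are described here, 5 of the 55573 genes in the count table. The genes *Lgals1*, *Lgals3*, *Lgals8*, *Lgals9* and *Lgals3bp* were taken by symbol through their Ensembl identifiers, and all 5 were among the 20153 genes that passed the filter (10 counts or more in 4 or more libraries of 8). Microglia, the resident macrophages of the brain, were sorted from the brain at postnatal day 60 from 4 mutant mice in which *Smad2* and *Smad3*, the transcription factors of canonical TGFβ signaling, were floxed on both alleles and deleted by *Cx3cr1* Cre, and from 4 control mice. The control libraries are labelled WT, whereas the Methods describe controls in general as heterozygous floxed mice that also carried Cre. The line was kept on C57BL6/J, and *Cx3cr1* Cre recombines in microglia and in related macrophages, so other macrophages of the sort can carry the deletion as well. Each mouse gave 1 library, with 35639502 to 41946479 counts on genes.

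Galectins are made in the cytosol, leave the cell without a signal peptide and bind N-acetyllactosamine chains on the cell surface, where they can link receptors into lattices. Inside the cell they bind the sugars that become exposed when an endosome or lysosome breaks. Galectin-1 is a small protein with a single sugar-binding domain, galectin-3 joins such a domain to a proline- and glycine-rich tail, and galectin-8 and galectin-9 carry a pair of sugar-binding domains on a single chain. In the brain, *Lgals3* is known as a marker of microglia around injury, plaques and developing white matter. *Lgals3bp* encodes a secreted scavenger-receptor glycoprotein that is a ligand of galectins and not a galectin.

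In the mutant microglia *Lgals1*, *Lgals3* and *Lgals3bp* rose, *Lgals9* fell, and *Lgals8* did not pass the test. The 3 members that rose compare with 4.36% of all tested genes called higher and the 1 that fell with 7.97% called lower, or 12.3% called in either direction. For each of these 4 genes the CPM values of mutants and controls did not overlap, which was so for 22.1% of tested genes and, for all mutants above all controls, for 9.04%. CPM is the count divided by the TMM-scaled size of its library, expressed as counts per 1e6, and a gene was called at an adjusted p-value under 0.05 over all tested genes in edgeR's quasi-likelihood test.

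The targeted *Smad3* was lower in mutants (log2 fold change -1.33, adjusted p = 0.0429), and *Smad2* was at 58.8 ± 15.0 CPM across mutants and at 74.6 ± 13.8 CPM across controls (± SD, 4 mice per group) without a call. *Xist*, from the inactive X chromosome, was at most 0.562 CPM in each mutant but 99.5 CPM or more in each control, and the Y-linked *Ddx3y* was at 9.74 CPM or more in each mutant but at most 0.224 CPM in each control. For all 5 genes, genotype and sex therefore cannot be told apart in these libraries. In bulk RNA, fewer cells of a type and less RNA per cell cannot be told apart either.

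*Lgals1* lies on chromosome 15 from 78926725 to 78930465 of GRCm38. It was measured at 92.6, 91.5, 43.5 and 136 CPM in control mice 1 to 4, and at 189, 301, 244 and 392 CPM in mutant mice 1 to 4. The lowest mutant was above the highest control, and the values spread about as widely, relative to their mean, in mutants as in controls. The means were 91.0 ± 38.0 CPM in controls and 281 ± 86.6 CPM in mutants (± SD, 4 mice per group), a log2 fold change of 1.63 (SE 0.35, adjusted p = 0.0168). The call was lost without control replicate 2, where the log2 fold change was 1.63 (adjusted p = 0.0517), and was kept with each of the other 7 mice left out.

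*Lgals3*, on chromosome 14 from 47367751 to 47386160, was at 90.0, 114, 51.8 and 92.4 CPM in control mice 1 to 4 and at 162, 191, 154 and 174 CPM in mutant mice 1 to 4. The mutants lay close together, with a coefficient of variation of 9.72%, against 29.6% among controls. The log2 fold change was 0.97 (SE 0.23, adjusted p = 0.0252), the smallest among the members that passed. Of the 8 fits that each left out a mouse, 5 kept the call. It was lost without control replicate 1 (adjusted p = 0.0516), without mutant replicate 2 (adjusted p = 0.0701) and without mutant replicate 4 (adjusted p = 0.0565), with log2 fold changes of 0.99, 0.91 and 0.96.

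*Lgals3bp*, on chromosome 11 from 118392751 to 118402092, was at 126, 237, 105 and 158 CPM in control mice 1 to 4 and at 442, 441, 568 and 312 CPM in mutant mice 1 to 4. Every mutant was above every control, although mutant 4 came closest to control 2. The means were 156 ± 57.8 CPM and 441 ± 105 CPM (± SD, 4 mice per group), and the log2 fold change of 1.49 (SE 0.28, adjusted p = 0.00954) passed with each mouse left out (adjusted p at most 0.0271).

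*Lgals9*, on the same chromosome from 78962974 to 78984946, went the other way. It was at 503, 441, 703 and 612 CPM in control mice 1 to 4 and at 179, 204, 251 and 177 CPM in mutant mice 1 to 4. The highest mutant was well below the lowest control. The means of 565 ± 116 CPM in controls and 203 ± 34.4 CPM in mutants (± SD, 4 mice per group) gave a log2 fold change of -1.48 (SE 0.20, adjusted p = 0.00159). This was the call of the 5 genes with the lowest p-value, and it was kept with each mouse left out (adjusted p at most 0.00756).

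*Lgals8*, on chromosome 13 from 12439415 to 12464944, was at 80.3, 79.5, 96.2 and 61.1 CPM in control mice 1 to 4 and at 44.5, 28.6, 74.8 and 57.9 CPM in mutant mice 1 to 4. The groups overlapped through mutant 3, which lay above control 4. The log2 fold change was -0.62 (SE 0.28, 95% confidence interval -1.26 to 0.016, adjusted p = 0.185), and the interval included 0. *Lgals8* also shares 155 exon bases, 4.2% of its exon length, with *Heatr1* on the opposite strand, and the libraries are not stranded. *Heatr1* was at 17.6 ± 7.54 CPM across mutants and at 26.2 ± 10.6 CPM across controls (± SD, 4 mice per group). The other 4 genes had no exon base in common with another gene and no 50-base word in common with the transcripts of another gene.

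**Figure D1:**
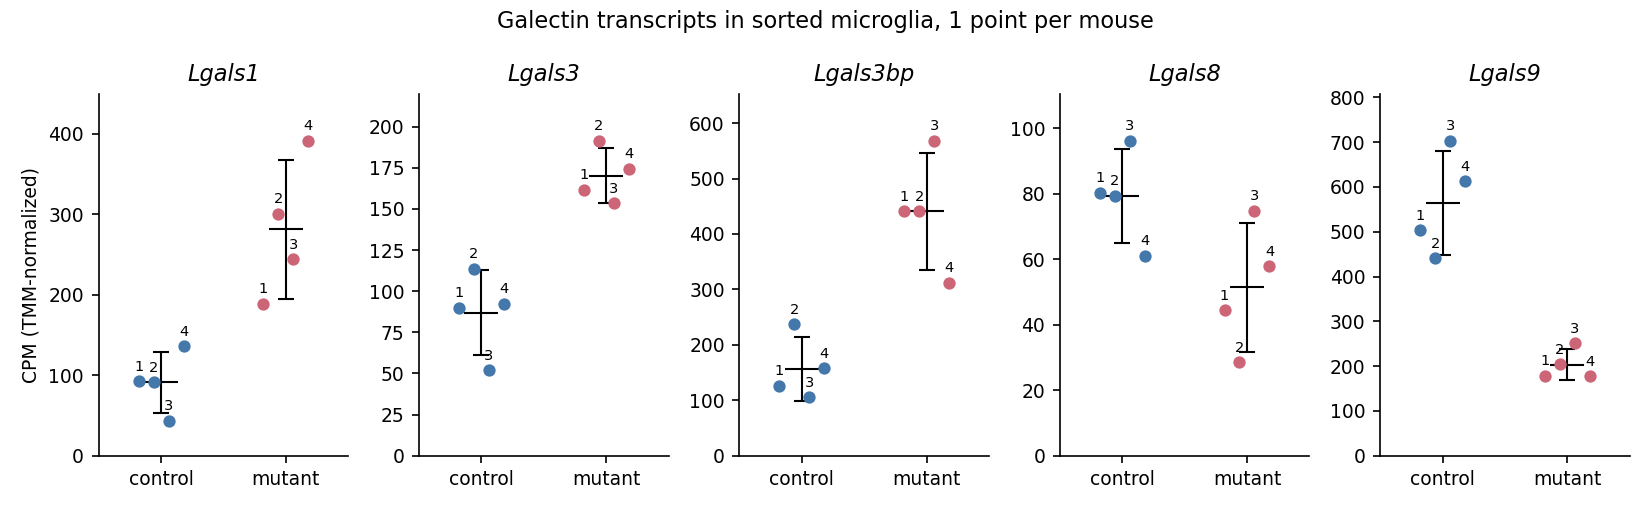
Expression of the 5 genes in CPM, with 1 point per mouse, the replicate number beside it, and bars for the mean ± SD of 4 mice. Mutant points lie above all control points for *Lgals1*, *Lgals3* and *Lgals3bp*, and below them for *Lgals9*, and for *Lgals8* only mutant 3 lies among the control points; the y axes start at 0 and differ between panels.

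The plot of the 5 genes by mouse also shows how the controls differed among themselves. Control 3 had the lowest *Lgals1*, *Lgals3* and *Lgals3bp* and the highest *Lgals8* and *Lgals9* of the 4 controls. Its library also had the lowest mitochondrial share of counts, 0.819% against 1.59% to 4.60% in the other controls. Its summed level of microglial markers was the highest, 37161 CPM against 25173 to 27799 CPM. The part of these library differences in the galectin levels was not tested. Among mutants, mouse 3 had the highest *Lgals3bp*, *Lgals8* and *Lgals9* and the lowest *Lgals3*. *Smad3* was at 35.1 CPM in that mouse, while the other 3 mutants had 9.61 to 17.5 CPM and controls 39.5 to 56.9 CPM. These counts cover the whole gene and do not measure deletion of its floxed part. A link between *Smad3* and the galectin levels of a mouse was not tested. Without mutant replicate 3 the log2 fold change was 1.69 for *Lgals1*, 1.01 for *Lgals3*, 1.35 for *Lgals3bp*, -1.60 for *Lgals9* and -0.86 for *Lgals8*, the last with an adjusted p of 0.0848.

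**Figure D2:**
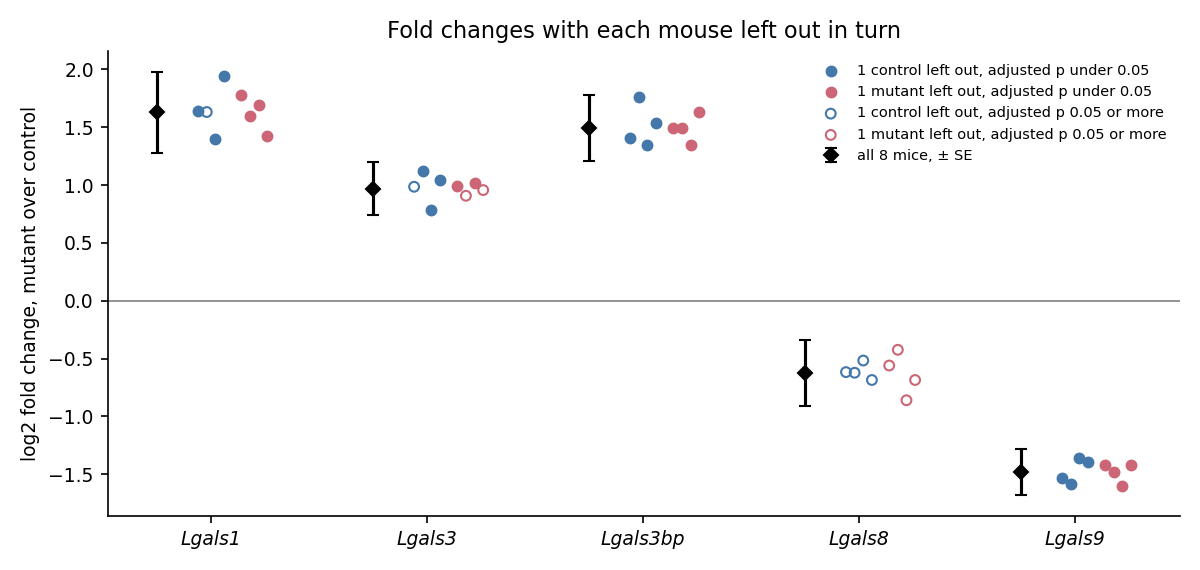
Log2 fold changes of mutants over controls with all 8 mice (diamonds, ± standard error) and with each control or mutant mouse left out in turn (circles, filled where the adjusted p-value was under 0.05). No fit changed a direction, and open circles stand for 1 fit of *Lgals1*, 3 of *Lgals3* and all 8 of *Lgals8*.

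Levels of different genes were compared as CPM per kilobase of exon (RPKM), with the exons of all transcripts of a gene merged. In controls *Lgals9* was the most abundant at 264 ± 54.4 RPKM, the 214th highest of 20147 tested genes with a known length. It was followed by *Lgals1* at 101 ± 42 RPKM, *Lgals3bp* at 55.0 ± 20.3 RPKM, *Lgals3* at 46.8 ± 13.9 RPKM and *Lgals8* at 21.5 ± 3.90 RPKM (SD, n = 4). The levels of *Lgals1* and *Lgals3bp* overlapped between mice, as did those of *Lgals3bp* and *Lgals3*, whereas *Lgals9* was above *Lgals1* and *Lgals3* above *Lgals8* in every comparison of control mice.

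In mutants the order changed. *Lgals1* came first at 312 ± 95.9 RPKM, the 194th highest gene, then *Lgals3bp* at 155 ± 36.8 RPKM, *Lgals9* at 94.9 ± 16.1 RPKM, *Lgals3* at 91.6 ± 8.91 RPKM and *Lgals8* at 14.0 ± 5.33 RPKM (SD, n = 4). *Lgals9* and *Lgals3* did not differ beyond their spread there, and *Lgals9* was the higher of the pair in 1 of 4 mutants. *Lgals3bp* and *Lgals9* overlapped between mice, although *Lgals3bp* was the higher in all 4 mutants.

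Of the summed RPKM of the 5 genes, *Lgals9* took 54.3 ± 11.3% in controls and 14.3 ± 2.44% in mutants, and *Lgals1* took 20.3 ± 7.12% and 46.1 ± 9.63% (± SD, 4 mice per group). The sum itself was 452 to 559 RPKM in controls and 547 to 736 RPKM in mutants, so the groups overlapped in the sum and not in the share of either gene. Within a mouse, *Lgals9* was 5.78 times *Lgals3* in controls and 1.03 times in mutants (geometric mean of the ratios of 4 mice per group, which did not overlap). The ratio of *Lgals1* to *Lgals3* was 2.07 in controls and 3.29 in mutants, and its values overlapped between the groups. Differences between members in their fold change were not tested.

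**Figure D3:**
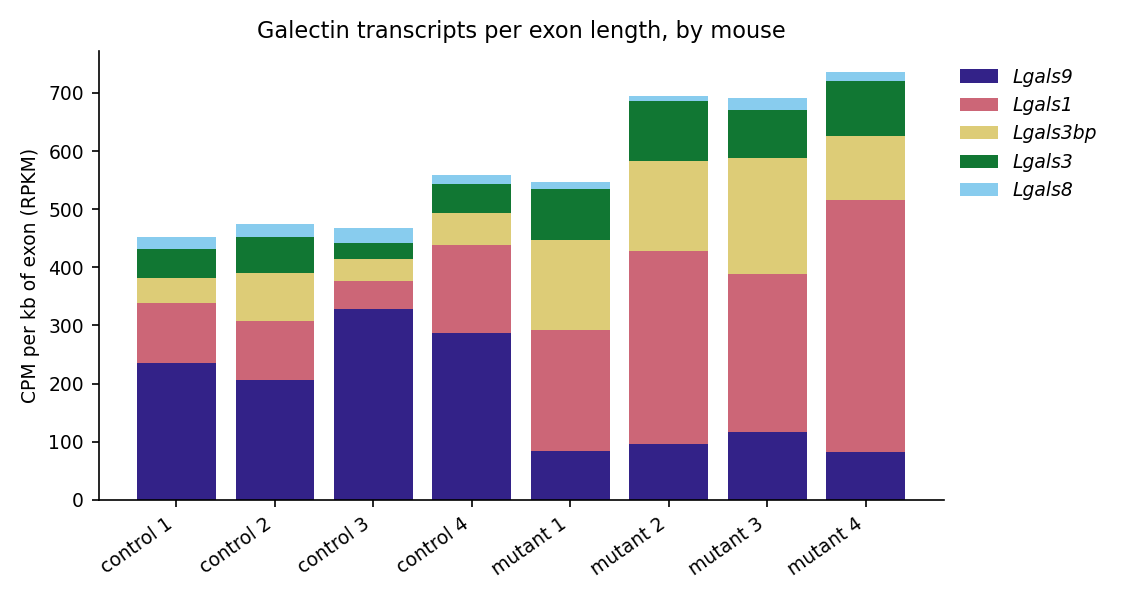
Levels of the 5 genes in CPM per kilobase of exon (RPKM), stacked for each of the 4 control and 4 mutant mice. The *Lgals9* segment at the base is the tallest in each control, the *Lgals1* segment is the tallest in each mutant, and the total is lowest in control 1 and highest in mutant 4.

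The remaining galectin genes were close to the detection limit. *Lgals2*, *Lgals4* and *Lgals12* were at 1.11 CPM or less on average in both groups, and none of them passed the test. *Lgals7* had 6 counts in the 4 mutants and 0 in the 4 controls, *Grifin* had 0 and 8, and both were below the filter. *Lgalsl*, which encodes a galectin-related protein not known to bind galactosides, was at 11.4 ± 4.01 CPM across mutants and at 6.09 ± 3.25 CPM across controls (± SD, 4 mice per group), with a log2 fold change of 0.90 (SE 0.43, adjusted p = 0.206).

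The sugar chains that galectins bind are built in the Golgi by a relay of enzymes, and 19 of these genes were listed. Of them 2 rose and 6 fell, where 4.36% of all tested genes were called higher and 7.97% lower. Their median log2 fold change was -0.44, against 0.011 over all tested genes. *B3gnt8*, which extends poly-N-acetyllactosamine on branched N-glycans, was at 50.3 ± 4.64 CPM across mutants and at 4.40 ± 0.925 CPM across controls (± SD, 4 mice per group), a log2 fold change of 3.51 (SE 0.20, adjusted p = 3.7e-05). Exons of *B3gnt8* overlap those of *Bckdha* over 18.1% of its exon length. *Man2a1*, a Golgi mannosidase of N-glycan maturation, changed by 3.23 (SE 0.29, adjusted p = 2.05e-04) on the log2 scale.

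The genes that fell encode enzymes that branch or galactosylate the chains. Other listed enzymes of both kinds did not pass, with log2 fold changes in both directions. *Gcnt1*, which makes the core 2 branch of O-glycans, changed by -1.87 (SE 0.23, adjusted p = 0.00109) and the galactosyltransferase *B4galt3*, whose exons overlap those of *Ppox* over 14.5% of their length, by -1.64 (SE 0.31, adjusted p = 0.0094). *Mgat2*, at 82.8 ± 12.6 CPM across mutants and at 107 ± 14.6 CPM across controls (± SD, 4 mice per group), was the most abundant of the 11 genes that did not pass (adjusted p = 0.174).

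Sialic acid caps on galactose set which galectins can bind, since α2,6-linked caps block galectin-1 and α2,3-linked caps are tolerated by several galectins. Of 9 genes for capping, sialic acid supply and bisecting, 2 rose and 3 fell, beside 4.36% and 7.97% of all tested genes. The α2,3-sialyltransferases moved in both directions. *St3gal1* changed by 2.0 (SE 0.26, adjusted p = 0.00133) and *St3gal4* by 1.59 (SE 0.26, adjusted p = 0.00458), whereas *St3gal2* changed by -2.39 (SE 0.20, adjusted p = 1.51e-04) and *St3gal6* by -1.52 (SE 0.17, adjusted p = 7.16e-04) on the log2 scale. Exons of *St3gal4* overlap those of *4930581F22Rik* over 14.1% of their length and exons of *St3gal6* those of *Dcbld2* over 26.0%. The remaining gene that fell, *Cmas*, which activates sialic acid, was named after its values were seen and changed by -1.33 (SE 0.20, adjusted p = 0.00319). *St6gal1*, the α2,6-sialyltransferase of N-glycans, was at 37.5 ± 10.5 CPM across mutants and at 38.3 ± 4.74 CPM across controls (± SD, 4 mice per group) and did not pass (adjusted p = 0.949).

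Of 13 genes of proteins known as galectin partners, 1 rose, 5 fell and 7 did not pass. Over all tested genes 4.36% rose and 7.97% fell. *Cd44*, a hyaluronan receptor bound by galectin-8 and galectin-9, went from 18.5 ± 7.67 CPM to 139.5 ± 41.5 CPM (± SD, 4 mice per group), a log2 fold change of 2.92 (SE 0.35, adjusted p = 9.12e-04). *Havcr2*, which encodes the galectin-9 receptor TIM-3, averaged 185 ± 33.6 CPM in controls and 43.5 ± 13.9 CPM in mutants (± SD, 4 mice per group), a log2 fold change of -2.09 (SE 0.26, adjusted p = 0.00109). *Lgals9* and this receptor were each lower in all 4 mutants than in all 4 controls. That was so for 2627 of the 20153 tested genes, and a link between the levels of this pair was not tested.

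*Lag3*, an inhibitory receptor reported to bind galectin-3, changed most of the list, from 30.3 ± 7.69 CPM to 0.634 ± 0.421 CPM (± SD, 4 mice per group), with a log2 fold change of -5.57 (SE 0.59, adjusted p = 4.86e-04). *Itgam*, the integrin subunit CD11b by which the cells were gated, changed by -2.51 (SE 0.19, adjusted p = 9.76e-05), and 68.7% of its exon length overlaps the gene model *Gm49368* on the same strand. *Mertk* and *Trem2*, phagocytic receptors bound by galectin-3 and named after their values were seen, changed by -1.89 (SE 0.29, adjusted p = 0.00345) and -1.35 (SE 0.23, adjusted p = 0.00496). *Lamp1*, a heavily glycosylated lysosomal membrane protein, was at 907 ± 138 CPM across mutants and at 1067 ± 122 CPM across controls (± SD, 4 mice per group) and did not pass (adjusted p = 0.396).

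Galectin-3, galectin-8 and galectin-9 mark broken lysosomes, so 20 genes of the response to lysosome damage were listed as well. None rose and 2 fell, a share of the list near that of all genes. *Tfeb*, the transcription factor of lysosome biogenesis, changed by -0.90 (SE 0.14, adjusted p = 0.00307) and *Pi4k2a*, a lipid kinase of lysosome repair, by -0.74 (SE 0.19, adjusted p = 0.0329) on the log2 scale. The autophagy receptor *Sqstm1* was at 639 ± 140 CPM across mutants and at 1007 ± 248 CPM across controls (± SD, 4 mice per group) and did not pass (adjusted p = 0.0986). Its exons overlap those of *Mrnip* over 17.3% of their length.

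*Lgals3bp* and *Lgals9* are both known to respond to interferon, and 16 interferon-stimulated genes were listed beside them. Of these, 10 rose and none fell, beside 4.36% and 7.97% of all tested genes, and their median log2 fold change was 1.86. *Oasl2* changed by 4.52 (SE 0.66, adjusted p = 0.00267), *Rtp4* by 3.4 (SE 0.48, adjusted p = 0.00226), *Usp18* by 2.67 (SE 0.55, adjusted p = 0.0139) and *Irf7* by 2.36 (SE 0.48, adjusted p = 0.0128). Exons of *Rtp4* overlap those of *Gm45338* on the same strand over 13.9% of their length. *Lgals3bp* rose with this list and *Lgals9* fell. The mean log2 CPM of the list was 1.94 to 3.26 in controls and 4.42 to 4.88 in mutants. Control 2 was the highest of the controls in both *Lgals3bp* and this mean, and control 3 was the lowest in both. Controls 1 and 4 were reversed, with means of 2.84 and 2.33 but *Lgals3bp* at 126 and 158 CPM. Among mutants, mouse 1 had the highest mean (4.88) and mouse 3 the highest *Lgals3bp* (568 CPM). Mutant 2 had the lowest mean (4.42) and mutant 4 the lowest *Lgals3bp* (312 CPM). A link between this list and *Lgals3bp* or *Lgals9* was not tested.

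**Figure D4:**
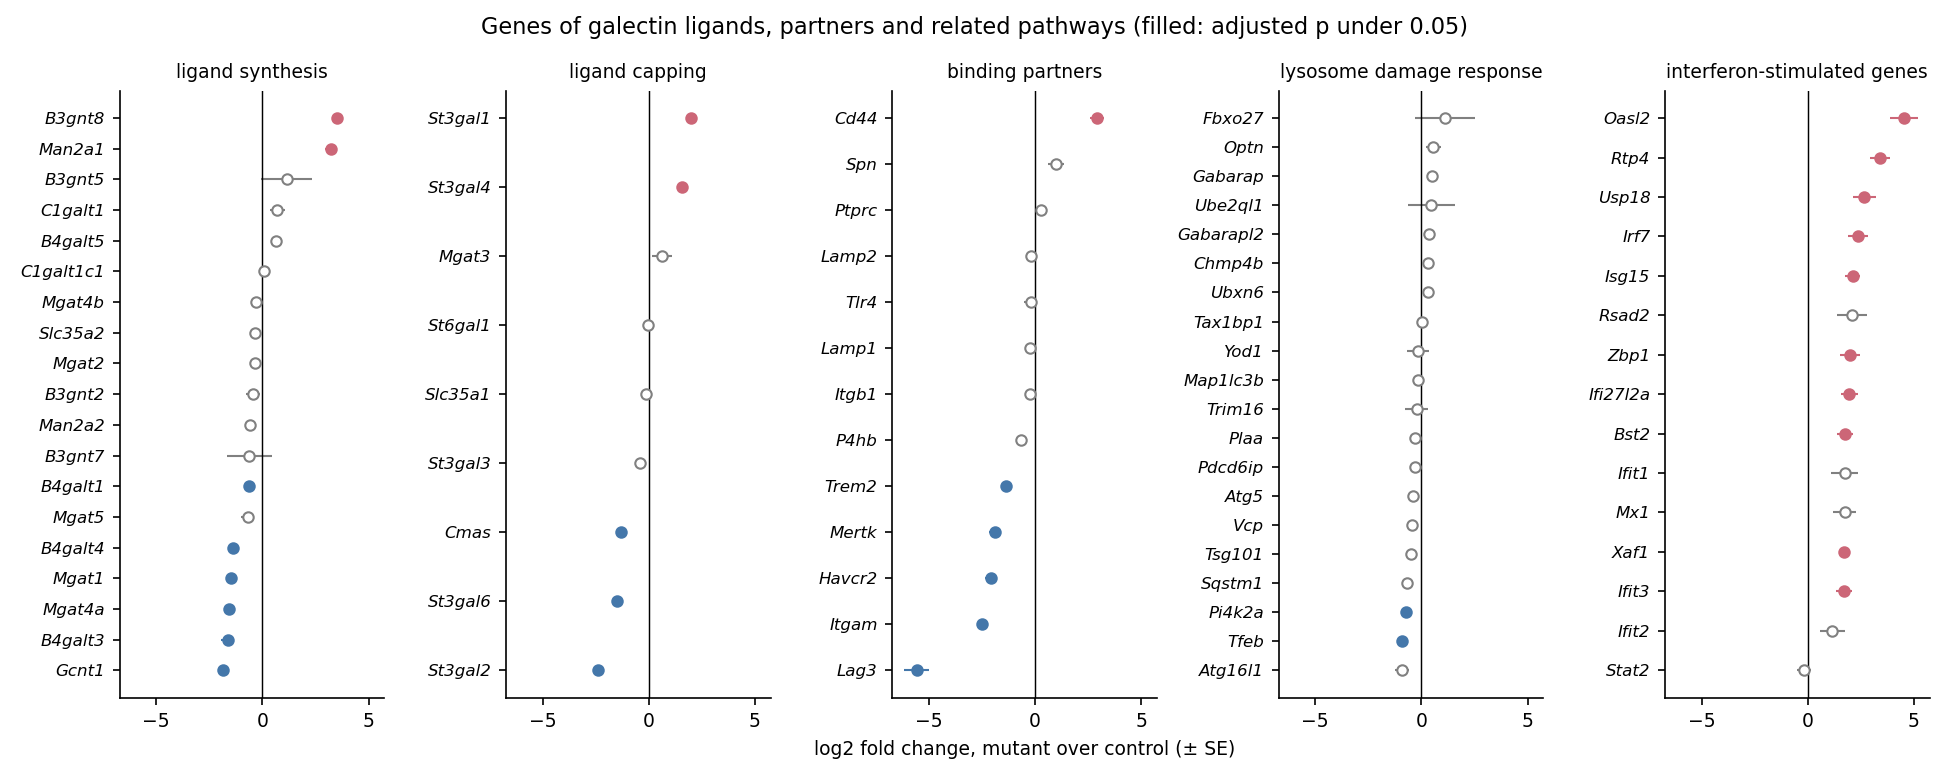
Log2 fold changes of mutants over controls (± standard error) for the tested genes of 5 lists, with filled points where the adjusted p-value was under 0.05 (red higher, blue lower in mutants). The partner list runs from *Lag3* at -5.57 to *Cd44* at 2.92, and the 10 filled interferon-stimulated genes lie to the right of 0, with 1 gene of that list not drawn.

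The sequences before the transcription start are shown for the members that changed and hold a motif that the deleted factors or interferon signaling are known to use. RefSeq promoter sequences of GRCm38.p6 were at hand for 4 of the 5 genes, with no entry for *Lgals1*. For *Lgals3* and *Lgals8* all of the bases searched before the RefSeq start lie inside the annotated gene span, downstream of its outermost start. The windows of *Lgals3bp* and *Lgals9* lie inside the span only in part. For *Lgals3bp* this part is the bases nearer than 134 to the RefSeq start, which hold its match. For *Lgals9* it is the bases nearer than 23, which hold no match. The 250 bases before each start were searched on both strands for the interferon-stimulated response element, a GAAA repeated after any pair of bases, which 2.98% of all 32851 promoters hold, for the shorter interferon regulatory factor core AANNGAAA (21.3%), which can lie inside the former, and for the SMAD-binding element CAGACA (17.1%). Capitals mark the matches, and annotated exons were left out apart from 30 bases around the match of *Lgals3bp*.
*Lgals9*, chr11:78984947-78985174, minus strand: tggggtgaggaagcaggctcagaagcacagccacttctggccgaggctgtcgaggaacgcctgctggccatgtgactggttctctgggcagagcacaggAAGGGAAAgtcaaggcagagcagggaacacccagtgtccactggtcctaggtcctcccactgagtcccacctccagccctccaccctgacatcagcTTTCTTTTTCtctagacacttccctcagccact
*Lgals3bp*, chr11:118401960-118401989, minus strand: tcatgtgttttctgaaAATCGAAActaggt
*Lgals3*, chr14:47373610-47373812, plus strand: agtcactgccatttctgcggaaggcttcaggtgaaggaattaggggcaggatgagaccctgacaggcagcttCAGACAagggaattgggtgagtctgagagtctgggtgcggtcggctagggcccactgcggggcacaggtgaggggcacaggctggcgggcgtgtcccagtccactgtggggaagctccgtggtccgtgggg

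*Lgals9* held the full response element on the strand opposite to the gene, 55 to 46 bases before its start, and *Lgals3bp* held only the shorter core, 14 to 7 bases before its start. The shorter core also lay in *Lgals9*, 151 to 144 bases before its start and, inside the full element, 55 to 48 bases before it. *Lgals9* fell and *Lgals3bp* rose, and a link between motif and direction was not tested. *Lgals3* was the only one of the 4 with the SMAD-binding element, 178 to 173 bases before its start, and *Lgals8* held none of the 3 motifs. Of the 10 interferon-stimulated genes with an entry, 6 held the full element in at least 1 promoter. These matches describe the letters of the windows.

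By the root mean square difference of centred log2 CPM over the 8 libraries, *Lgals9* was most like *St3gal6* (0.11), *Gm12166* (0.12) and *Mef2c* (0.13) among 10340 genes whose mean log2 CPM reached 3. *Mef2c* encodes a transcription factor of microglia. *Lgals3bp* was most like the class I histocompatibility genes *H2-Q7* (0.14) and *H2-Q5* (0.24), whose sequences are alike enough that reads may be split between them, followed by *Ocrl* (0.24). The nearest genes were *Tmem205* (0.20), *Gm20501* (0.21) and *Gm8129* (0.23) for *Lgals1*, *Hist1h2bg* (0.16), *Mospd1* (0.16) and *Itga3* (0.16) for *Lgals3*, and *Lysmd3* (0.15), *Zdhhc13* (0.15) and *Smarcd2* (0.17) for *Lgals8*.

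The cell type of the sort was checked with fixed markers, and some markers moved with the galectins. Of 8 microglial markers 7 were lower in mutants, and their summed level was 3351 to 3773 CPM in mutants and 25173 to 37161 CPM in controls. Of 7 markers of border-associated macrophages 5 were higher, with sums of 1632 to 2537 CPM in mutants and 52.8 to 99.1 CPM in controls. None of 5 monocyte markers passed, and their sums of 128 to 286 CPM and 194 to 451 CPM overlapped. Neutrophil sums, with 2 of 7 markers lower, were 268 to 828 CPM in mutants and 558 to 2619 CPM in controls, and lymphocyte sums, with 2 of 10 markers higher, were 128 to 221 CPM and 78.5 to 128 CPM.

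Astrocyte sums did not overlap, at 371 to 1339 CPM in mutants against 1449 to 2469 CPM in controls, with 1 of 7 markers lower. That marker, the glutamate transporter *Slc1a3*, changed by -4.10 on the log2 scale (SE 0.55, adjusted p = 0.00163). It was the most abundant astrocyte marker in controls, at 1349 ± 290 CPM against 78.9 ± 63.0 CPM in mutants (± SD, 4 mice per group). The other 6 astrocyte markers did not pass, and the median log2 fold change of the list was 0.096. None of the markers of oligodendrocytes, neurons or endothelium passed and their sums overlapped between the groups, while 1 of 6 markers of mural cells and fibroblasts was lower, with sums that overlapped. No marker of these lists was at 0 in all libraries. The part of these cells in the galectin changes was not tested.

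The mean log2 CPM of 25 markers of neurons, oligodendrocytes, astrocytes and endothelium overlapped between the groups (3.53 to 4.96 in mutants and 3.20 to 5.04 in controls). Entered as a covariate, it left the calls of the 5 genes as they were, with log2 fold changes of 1.64 for *Lgals1*, 0.96 for *Lgals3*, 1.49 for *Lgals3bp* and -1.44 for *Lgals9*. The score had much the same range in both groups, so this fit could hardly move a fold change. Markers of border-associated macrophages, monocytes, neutrophils and lymphocytes were not in the score, and the part of those cells was not tested.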

How the data were processed

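RNA of sorted microglia from 4 mutant and 4 control mice was analysed, with each library taken as 1 mouse. The labels number the libraries without naming animals, so p-values measure the spread between libraries. The deposited table holds raw counts per gene, which the authors obtained with featureCounts after Rsubread alignment to mm10; the annotation and strand setting are not given in the sources used here. The Methods name another accession for these mutants, and the libraries were matched to the study by genotype and cell type. The labels name Nextera XT, single-end libraries, and the Methods polyA-selected, paired-end NEBNext libraries. A table of the authors' own DESeq2 comparison (fold changes and p-values) was not used. All columns of per-sample counts were used.

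Genes reaching 10 counts in 4 or more libraries were tested with edgeR 4.0.16 in R 4.3.3 (TMM, quasi-likelihood, no block, Benjamini-Hochberg over 20153 genes). The standard error is the log2 fold change divided by the square root of F. DESeq2 1.42.0 was an alternative. The script was tested on simulated data first. Log2 CPM used a prior count of 2. Precision was set by the spread between mice (biological coefficient of variation 0.542) rather than by counting error. Exon lengths, coordinates and overlaps came from GENCODE M21 on GRCm38, which matched 55480 of 55573 identifiers. Figures were drawn with matplotlib 3.10.9 in Python 3.11.15.

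The members, lists and tests were chosen with earlier results of these data known. Genes named from each list are up to 4 calls with the largest absolute log2 fold change and the most abundant gene without a call, and 3 genes nearest in profile to each member. *Lgals6* was listed but had no match. The gene this rule would name without a call among the interferon-stimulated genes is not reported here. Lists are described by counts and medians, without a test. The replicate numbers of the labels do not state a pairing. Deviations of same-numbered mice correlated between 0.018 and 0.17, not all over 0.1, and the block was an alternative only. The score of other brain cells was highest in mouse 1 of each group (5.04 in controls, 4.96 in mutants). Mouse 2 was next in each group (4.26 and 4.35). Whether same-numbered mice were processed together was not tested.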

Additional observations from a re-analysis of the deposited data

How the results depend on the processing

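The alternatives were DESeq2, RLE factors, library totals, no filter, a filter of 10 counts in every library, the replicate block, a brain-cell covariate and each mouse left out. No fit changed the direction of a member. Under all 15, *Lgals9* and *Lgals3bp* kept their calls and *Lgals8* had none. *Lgals1* lost its call in 1 fit and *Lgals3* in 3, each with a mouse left out, with log2 fold changes over those 8 fits of 1.40 to 1.94 and 0.79 to 1.12. With the replicate block the log2 fold changes were 1.69 for *Lgals1*, 1.02 for *Lgals3*, 1.53 for *Lgals3bp*, -0.69 for *Lgals8* and -1.47 for *Lgals9*, and the block changed no call among them. Over all genes, DESeq2 called 2089 higher and 2662 lower, against 878 and 1607 with edgeR, and leaving out a mouse gave 525 to 1024 higher and 1005 to 1587 lower. The lowest counts came without control replicate 2 for higher and without control replicate 3 for lower genes. Of the lysosome damage genes, 2 of which were lower, DESeq2 called 5, library totals 1, and leaving out a mouse 1 to 2. The cause of these shifts was not tested. Library totals moved the median log2 fold change of all genes by 0.12. Without division by length, *Lgals3bp* lay above *Lgals1* in both groups. The 95% interval of the *Lgals8* change included 0, with a standard error of 0.28.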
